A study of Solanum tuberosum with 12 samples.

Results

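Potato (Solanum tuberosum) shoot tips recovering from cryopreservation under red and blue light-emitting diodes (LEDs) were compared with shoot tips recovering under cool white fluorescent tubes, by RNA sequencing of 3 libraries in each group. These 6 libraries were taken by their labels from a series of 12, which also holds 3 libraries of cryopreserved tips kept in darkness and 3 of tips that were not cryopreserved. Of the 39027 genes in the count files, 19920 had enough reads to be tested. All tips came from in vitro plants of 1 genotype, Agrie Dzeltenie, aged 3.5 weeks, and each library pooled 10 tips. The LED group received 90% red and 10% blue light for 16 h, the cool white group received light from fluorescent tubes for 16 h, and the dark group stayed without light for the same time. Light intensity was 40 µmol per square metre per second under LEDs and under cool white tubes alike. Before that, all 3 cryopreserved groups had been treated for 2 h with 10% dimethyl sulfoxide, a cryoprotectant that enters cells, in medium with 30% sucrose, frozen in liquid nitrogen for 1 h, rewarmed, and left on regeneration medium in darkness for 48 h. The tips that were not cryopreserved were under cool white light, and the labels do not say whether they also spent 48 h in darkness.

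Plants read the colour of light through several families of photoreceptors. Phytochromes respond to red and far-red light, and cryptochromes and phototropins respond to blue light. A fluorescent tube that looks white emits a mixture that includes green, whereas a pair of red and blue LEDs leaves most of the green out, so the groups differed in spectrum at the same intensity. Light shapes chloroplast development, pigment synthesis and growth in the shoot tip, and the first days after rewarming are an early stage of regrowth. The series' design text names the comparison of light conditions during this recovery.

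The files do not pair their identifiers with gene names. None of the identifiers was found in the RefSeq gene table used here (0 of 39027), so genes are described in groups, with 2 leading identifiers in each direction. No function can be given for them, and the labelled tissue was not checked against marker genes. Because whole tips were sequenced, fewer cells of a type and less RNA per cell cannot be told apart.

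The LED libraries held 6524085 to 10572258 counted reads and the cool white libraries 7537603 to 8381673. LED replicates 1 and 3 stood apart from each other. Between these 2 libraries 1079 of 17951 genes with a mean of at least 1 log2 CPM differed at least 2-fold (CPM is the read count relative to library size, here scaled by TMM factors). Their chi-square over the degrees of freedom, which is near 1 for counting noise alone, was 19.3. LED replicate 2 was closer to replicates 1 and 3, with 526 and 477 such genes and chi-square ratios of 7.81 and 6.48. Where replicates differ beyond counting noise, this ratio also grows with read number. LED replicates 1 and 3 held the most reads of the LED and cool white libraries (10572258 and 9614471). Between cool white libraries 154 to 283 genes differed at least 2-fold, and that chi-square ratio was 2.94 to 5.43. Between an LED and a cool white library the number was 466 to 1117, so a pair of LED libraries could differ about as much as an LED library differed from a cool white one. The median SD of a gene over 3 replicates was 0.20 on the log2 scale under LEDs and 0.15 under cool white light, and it was larger under LEDs for 64.1% of genes.

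Few genes passed the test for a difference under LEDs against cool white light, and most of those that passed were lower under LEDs. In edgeR's quasi-likelihood test, 287 genes had a Benjamini-Hochberg adjusted p under 0.05 and were called, which is 1.44% of the genes tested. Of these, 212 were lower under LEDs (1.06% of those tested) and 75 were higher (0.377%). No LED library overlapped with a cool white library in any of the 287, and the same held for 22.4% of the genes tested. An unadjusted p under 0.05 was found for 1437 higher genes (7.21%) and 1982 lower genes (9.95%), together 17.2% of those tested. The balance of calls moved with the scaling, to 103 higher and 180 lower with DESeq2 size factors. At the unadjusted threshold that scaling gave 1770 higher and 1710 lower genes, so the excess of lower genes did not extend to weak differences under it.

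**Figure D1:**
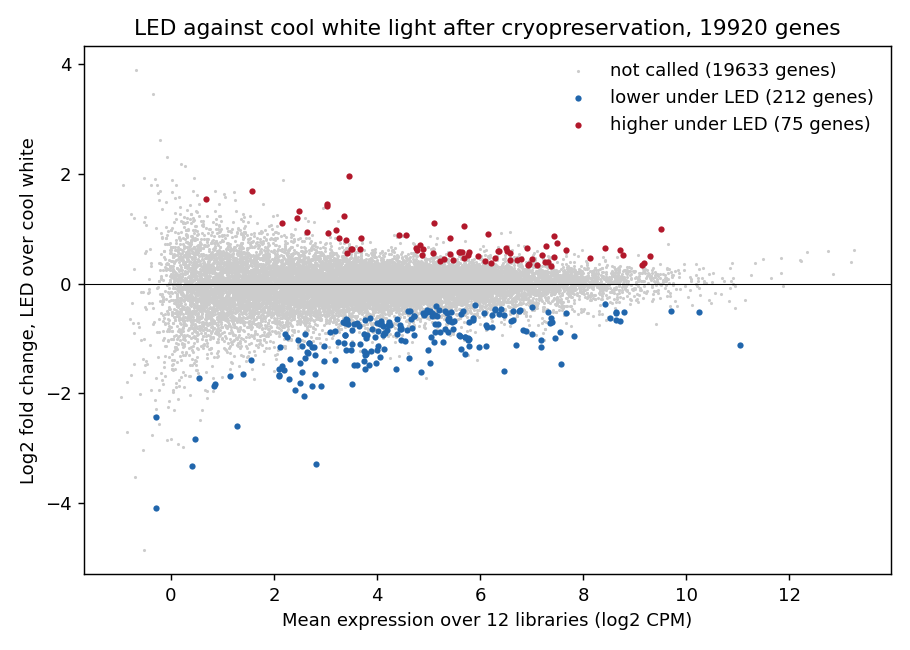
Log2 fold change of LED over cool white light (vertical axis) against mean expression over all 12 libraries in log2 CPM (horizontal axis), 1 point for each tested gene. The 212 called lower genes reach further from 0 than the 75 called higher genes. Called genes lie at low and at high expression, with fewer of them at the lowest levels.

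The 212 genes lower under LEDs had a median level of 19.8 CPM under LEDs and 34.9 CPM under cool white light. Their log2 fold changes ranged from -4.10 to -0.37 with a median of -0.90, and 85 of them differed at least 2-fold, 7 of these at least 4-fold. Together they summed to 12465, 13142 and 11085 CPM in LED replicates 1 to 3, against 21060, 22279 and 20863 CPM in cool white replicates 1 to 3. The sums of the groups did not overlap, which the choice of these genes fixes.

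The 75 genes higher under LEDs had more reads and smaller differences. Their median level was 68.2 CPM under LEDs and 42.0 CPM under cool white light, and their median log2 fold change was 0.60, with a range of 0.33 to 1.96. Only 11 of the 75 differed at least 2-fold and 0 at least 4-fold. In 35 of the 75 the difference was under 1.5-fold, compared with 37 of the 212 lower genes.

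Calls were more frequent among genes with more reads. When the tested genes were ranked by mean expression and cut into 5 groups of equal size, 13 of 3984 genes were called in the lowest group, up to 3.88 CPM (0.326%), and 89 of 3984 in the highest group, from 54.0 CPM (2.23%). The highest group held 37 of the 75 higher genes and 52 of the 212 lower genes. The median standard error of a log2 fold change was 0.40 in the lowest group and 0.10 in the highest.

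Among called genes of at least 1 mean log2 CPM, the largest decrease was in PGSC0003DMG400013010. It stood at 4.44, 8.46 and 0.72 CPM in LED replicates 1 to 3, against 27.3, 46.6 and 50.0 CPM in cool white replicates 1 to 3. All LED libraries lay below all cool white libraries. The rule that chose the named genes fixes that the lights do not overlap, here and for the genes below. LED replicate 3 held 7 reads, fewer than the 48 and 56 of LED replicates 1 and 2. Its log2 fold change was -3.28 (SE 0.48, adjusted p 0.00776 in edgeR's quasi-likelihood test), -3.95 without LED replicate 2 and -2.74 without LED replicate 3. In darkness it had 0, 1.66 and 0.76 CPM, and in tips that were not cryopreserved 18.4, 24.2 and 26.5 CPM. The dark libraries lay below LED replicates 1 and 2, and 1 of them lay below LED replicate 3, while those of tips that were not cryopreserved lay below the lowest cool white library.

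PGSC0003DMG400027912 followed, with 1.39, 1.06 and 0.21 CPM in LED replicates 1 to 3, against 6.18, 6.12 and 3.98 CPM in cool white replicates 1 to 3. Its LED values rest on 15, 7 and 2 reads. The log2 fold change was -2.59 (SE 0.46, adjusted p 0.0218 in edgeR's quasi-likelihood test), -3.22 without LED replicate 1 and -2.10 without LED replicate 3. Dark libraries had 0.70, 1.92 and 0.76 CPM, against 3.62, 5.25 and 4.86 CPM in tips that were not cryopreserved. The dark libraries overlapped with the LED libraries, and those of tips that were not cryopreserved overlapped with the cool white libraries.

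Among the same called genes, PGSC0003DMG400023770 showed the largest increase. It had 27.0, 20.2 and 13.5 CPM in LED replicates 1 to 3, against 5.67, 4.33 and 5.62 CPM in cool white replicates 1 to 3. The lowest LED library, replicate 3, was still well above every cool white library. The log2 fold change was 1.96 (SE 0.30, adjusted p 0.0103 in edgeR's quasi-likelihood test). Dark libraries spread over 10.1, 13.9 and 5.51 CPM, reaching from the cool white range up to the lowest LED library, and tips that were not cryopreserved had 12.3, 15.01 and 14.4 CPM.

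PGSC0003DMG400023450 was the next increase, at a low level. It had 2.50, 4.38 and 4.54 CPM in LED replicates 1 to 3, against 1.03, 1.27 and 1.17 CPM in cool white replicates 1 to 3, from 8 to 10 reads in each cool white library. Its log2 fold change was 1.69 (SE 0.33, adjusted p 0.0276 in edgeR's quasi-likelihood test). In darkness it had 3.49, 1.92 and 2.91 CPM, above the cool white libraries and overlapping with the LED libraries, and in tips that were not cryopreserved 4.77, 4.88 and 4.20 CPM. The cool white libraries were therefore the lowest of all 4 groups for this gene.

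These 4 calls rested on few libraries. Leaving out cool white replicate 2 ended all 4, with adjusted p of 0.0513 for PGSC0003DMG400013010, 0.121 for PGSC0003DMG400027912, 0.0756 for PGSC0003DMG400023770 and 0.131 for PGSC0003DMG400023450 in edgeR's quasi-likelihood test. Over all 25 alternatives the adjusted p ranged from 0.000433 to 0.125 for PGSC0003DMG400013010, from 6.87e-05 to 0.121 for PGSC0003DMG400027912, from 1.58e-07 to 0.0885 for PGSC0003DMG400023770 and from 0.00390 to 0.158 for PGSC0003DMG400023450. The direction stayed the same in each of these alternatives. PGSC0003DMG400023450 was called in 16 of the 25, PGSC0003DMG400027912 in 20, and the other two in 23 each. Besides cool white replicate 2, the call of PGSC0003DMG400027912 was lost without cool white replicate 1 and without LED replicate 2. That of PGSC0003DMG400023450 was lost without cool white replicate 1 or 3 and without LED replicate 2 or 3.

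**Figure D2:**
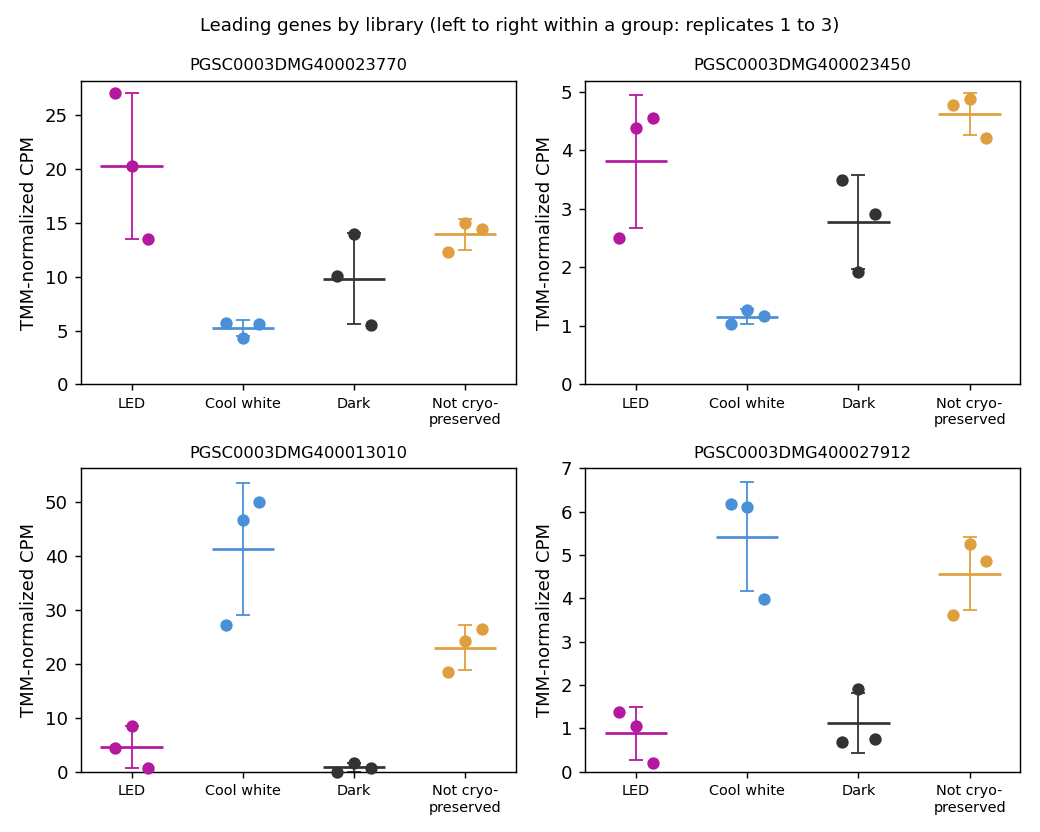
TMM-normalized CPM of the 4 leading genes (vertical axes, each from 0) in every library of the 4 groups (horizontal axes), where points are libraries, wide lines are means and error bars are SDs (n = 3). The LED and cool white points do not overlap in any panel, which the choice of these genes fixes. In the panel of PGSC0003DMG400013010 the dark libraries lie between 0 and 1.66 CPM.

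The dark and non-cryopreserved libraries are not on either side of the comparison between the lights, but they enter its fit through the scaling, the filter on low counts and the estimate of the spread. Among the 212 genes lower under LEDs, 111 (52.4%) were lower in dark cryopreserved tips than in tips that were not cryopreserved, and 36 (17.0%) were higher. Of all genes tested, 27.6% were lower and 27.7% higher in that comparison, and 55.2% were called. Decreases of at least 2-fold in darkness were called for 79 of the 212 (37.3%), against 11.3% of all genes. The median log2 difference of darkness from tips that were not cryopreserved was -0.57 for the 212 genes and -0.01 for all genes. The 212 genes also had more reads, with a median of 4.46 log2 CPM against 4.06 for all genes, and the part of read number in these shares was not tested.

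Among the 75 genes higher under LEDs, 36 (48.0%) were higher in dark cryopreserved tips than in tips that were not cryopreserved and 16 (21.3%) were lower, beside 27.7% and 27.6% of all genes tested. Their median log2 difference was 0.26. Increases of at least 2-fold were called for 18 of the 75 (24.0%), against 12.1% of all genes. This contrast differs in cryopreservation as well as in light, so the parts of freezing and of darkness cannot be told apart in it.

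Split by that contrast, the genes lower under LEDs fell into 3 groups with different levels. The 111 that were also lower in darkness than in tips that were not cryopreserved had median levels of 21.6 CPM under LEDs, 39.0 CPM under cool white light, 11.3 CPM in darkness and 38.4 CPM without cryopreservation. Their median under cool white light was thus close to the median in tips that had not been frozen. The LED median lay between those of cool white light and darkness. Medians over genes do not say how close the levels of single genes were. The 36 that were higher in darkness than in tips that were not cryopreserved had medians of 19.4 CPM under LEDs, 33.5 CPM under cool white light, 27.2 CPM in darkness and 13.0 CPM without cryopreservation. In these medians all 3 recovery conditions were above the tips that had not been frozen, and the LED group was the closest to them. The remaining 65, not called in that contrast, had medians of 14.4 CPM under LEDs, 30.4 CPM under cool white light, 17.1 CPM in darkness and 18.2 CPM without cryopreservation. The split itself places cool white light above LEDs in all 3 groups of genes and sets how the dark and non-cryopreserved levels stand to each other, so these medians are a description.

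The genes higher under LEDs were split in the same way, which fixes the same orders. The 36 that were also higher in darkness had median levels of 89.7 CPM under LEDs, 61.3 CPM under cool white light, 85.7 CPM in darkness and 44.3 CPM without cryopreservation. Here the LED and dark medians were close to each other. The 16 that were lower in darkness had medians of 49.2 CPM under LEDs, 33.5 CPM under cool white light, 41.5 CPM in darkness and 57.7 CPM without cryopreservation. The remaining 23 had medians of 68.0 CPM under LEDs, 40.5 CPM under cool white light, 50.9 CPM in darkness and 44.7 CPM without cryopreservation. In these medians cool white light was the lowest of the recovery conditions.

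The LED and cool white values chose the called genes and also enter the distance of any other group from each light, so the following counts are a description only. The mean of the dark libraries was nearer to the LED mean than to the cool white mean in 170 of the 212 lower genes (80.2%) and in 49 of the 75 higher genes (65.3%), and in 55.9% of all genes tested, which were not chosen in that way. In 113 of the 212 the dark mean was below both lights, in 85 between them and in 14 above both. For the 75 higher genes the dark mean was below both lights in 4, between them in 51 and above both in 20. The mean of tips that were not cryopreserved was nearer to the LED mean in 117 of the 212 (55.2%) and in 31 of the 75 (41.3%), and in 50.8% of all genes.

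**Figure D3:**
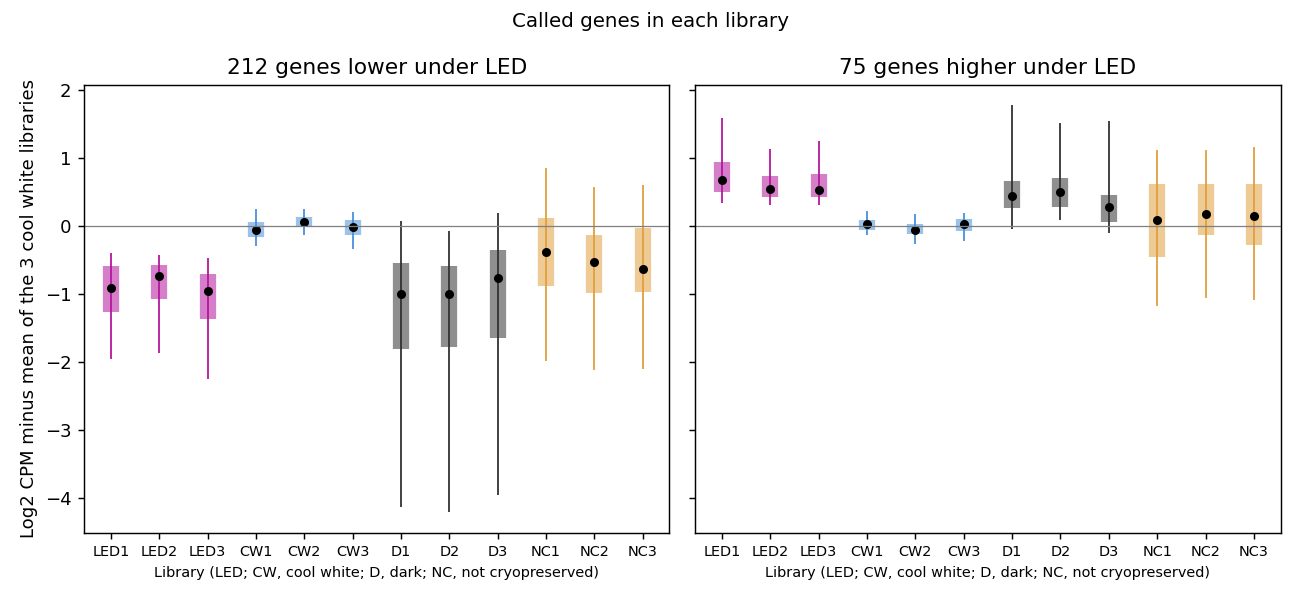
Log2 CPM of the called genes minus their mean over the 3 cool white libraries (vertical axes) in each of the 12 libraries (horizontal axes), for the 212 lower genes on the left and the 75 higher genes on the right. Dots are medians over genes, boxes run from the lower to the upper quartile and lines from the 5th to the 95th percentile. For the lower genes, dark replicates 1 and 3 have medians of -0.99 and -0.75, with dark replicate 2 beside replicate 1, close to the LED medians of -0.91, -0.73 and -0.95. Their 5th percentiles lie apart, at -4.12, -4.20 and -3.95 in dark replicates 1 to 3 and -1.95, -1.87 and -2.25 in LED replicates 1 to 3. The cool white values chose these genes, so distances from their mean are a description.

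Each light was also set against the other groups, in comparisons that share 3 libraries with the one that chose the genes, so these values are given side by side only. Between LED light and tips that were not cryopreserved, 97 of the 212 lower genes were lower and 27 higher, where 23.3% and 27.3% of all genes were. Between cool white light and tips that were not cryopreserved, 20 of the 212 were lower and 120 higher, where 21.5% and 27.8% of all genes were. The median log2 difference from tips that were not cryopreserved was -0.42 under LEDs and 0.53 under cool white light. Against cool white light, 160 of the 212 were lower in darkness and 1 was higher, where 10.4% and 4.55% of all genes were. Between LED light and darkness, 55 of the 212 were higher and 30 lower under LEDs and 127 were not called, where 7.17% of all genes were higher and 3.46% lower.

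For the 75 genes higher under LEDs, 45 were higher and 5 lower under LEDs than in tips that were not cryopreserved, where 27.3% and 23.3% of all genes were. Between cool white light and tips that were not cryopreserved, 19 of the 75 were higher (25.3%), near the 27.8% of all genes, and 31 were lower (41.3%), beside 21.5% of all genes. Against cool white light, 38 were higher in darkness and 0 lower, where 4.55% and 10.4% of all genes were. Between LED light and darkness, 14 of the 75 were higher and 5 lower under LEDs, where 7.17% and 3.46% of all genes were. Median log2 differences from tips that were not cryopreserved were 0.46 under LEDs and -0.15 under cool white light.

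A gene that was not called is not thereby shown to be equal under both lights, so the 95% interval of each log2 fold change was set against a 2-fold difference. For 15816 genes (79.4% of those tested) the interval lay inside a 2-fold difference in either direction, among them 110 called genes. For 3927 genes that were not called (19.7% of those tested) the interval reached beyond 2-fold. The interval lay wholly beyond 2-fold for 35 genes, 31 of them lower under LEDs. The median half-width of the interval was 0.35 on the log2 scale. In the lowest of the 5 expression groups 28.5% of genes had an interval inside 2-fold, against 97.4% in the highest.

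Which genes were called depended on single libraries, of both groups. Without cool white replicate 2 only 19 genes were called, all lower under LEDs, with 952 higher and 1482 lower genes at an unadjusted p under 0.05. Without cool white replicate 1 the calls were 14 higher and 81 lower, without cool white replicate 3 they were 14 higher and 67 lower, and without LED replicate 2 they were 14 higher and 71 lower. Without LED replicate 1, 40 genes were higher and 212 lower, but only 151 of these 252 were among the 287. Without LED replicate 3, 94 were higher and 215 lower, with 180 of the 309 among the 287. Libraries of the other groups enter through the scaling, the count filter and the estimate of the spread. The calls were 32 higher and 140 lower without non-cryopreserved replicate 3, 35 higher and 161 lower without dark replicate 1, and 107 higher and 171 lower without dark replicate 2. Without dark replicate 2 the median log2 fold change of all genes was 0.014, against -0.013 with all libraries. When only the 6 LED and cool white libraries were fitted, 24 genes were higher and 70 lower, and 75 of these 94 were among the 287.

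**Figure D4:**
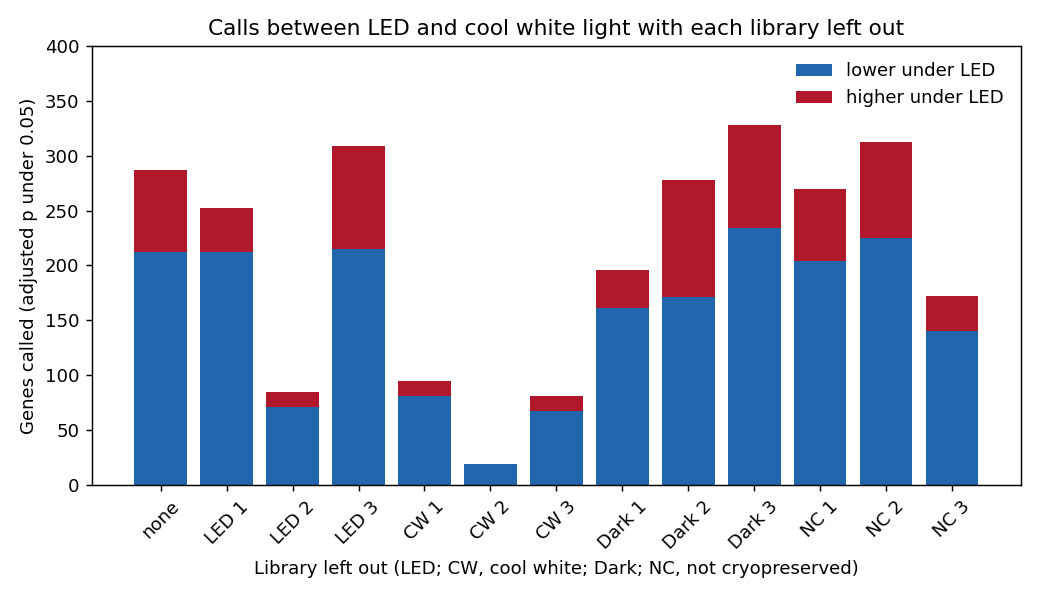
Number of genes called between LED and cool white light (vertical axis, adjusted p under 0.05) with all libraries and with each of the 12 libraries left out in turn (horizontal axis), split into genes lower and higher under LEDs. The bar without cool white replicate 2 holds 19 genes, against 287 with all libraries.

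A group of 18 genes stayed called whichever of the 6 LED and cool white libraries was left out, and all 18 were lower under LEDs. This group was picked from the results, so its values are a description. Its log2 fold changes ranged from -2.04 to -0.98. Median levels were 12.2 CPM under LEDs, 39.3 CPM under cool white light, 14.4 CPM in darkness and 23.0 CPM in tips that were not cryopreserved. Between darkness and tips that were not cryopreserved, 11 of the 18 were lower and 3 higher, where 27.6% and 27.7% of all genes were. None of the 75 higher genes was called in all 6 of these fits, and 6 of the 75 were called in at least 5 of them. Of the 287 genes, 48 were called in none of the 6.

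Calls were also checked in libraries they did not use. One LED and 1 cool white library were held out in each of the 9 possible pairs, genes were called with edgeR in the remaining 10 libraries, and the sign of the difference was read in the held-out pair. Between 9 and 324 genes were called, and a median of 92.3% of them had the same sign in the held-out pair, against 54.3% to 64.7% of all tested genes. The share was 65.7% of 324 genes with LED replicate 3 and cool white replicate 3 held out, and 86.8% of 174 genes with replicate 1 of each held out. In the other 7 pairs it was between 91.9% and 100%, of 9 to 99 genes. The median log2 difference of genes called lower ranged from -1.32 to -0.25 in the held-out pairs. The pairs reuse the same libraries and are not independent of each other.

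**Figure D5:**
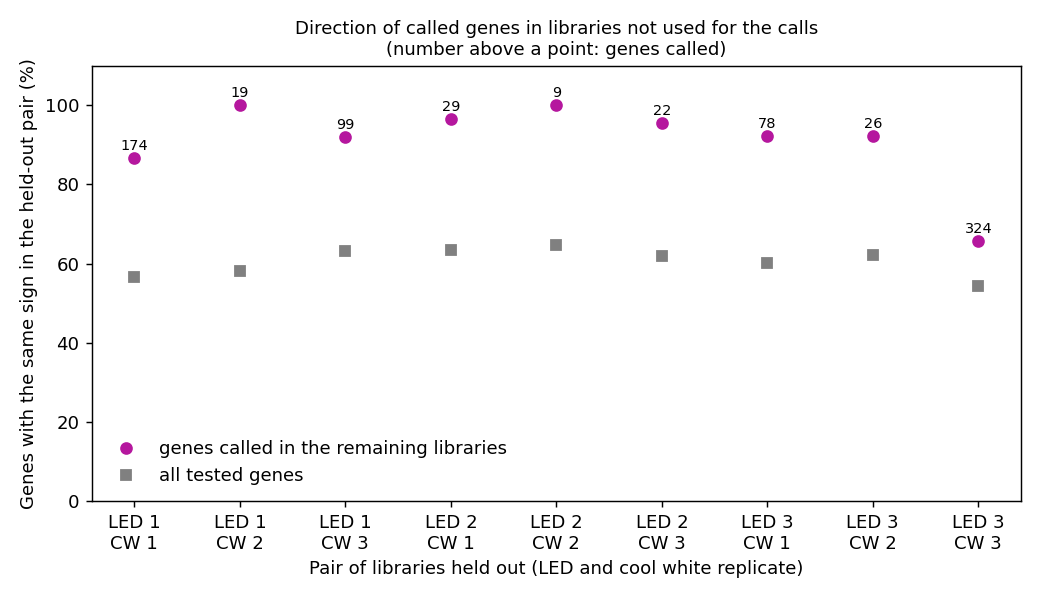
Percent of genes with the same sign of the LED minus cool white difference in the held-out pair as in the remaining libraries (vertical axis), for each of 9 held-out pairs (horizontal axis), for genes called in the remaining libraries and for all tested genes. The number above each point is the number of genes called. The pair of LED replicate 3 and cool white replicate 3 has 324 called genes and the lowest share, 65.7%.

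At an equal depth of 6342324 reads, 23685 genes (SD 81.2, n = 3) were detected under LEDs and 23977 (SD 78.8, n = 3) under cool white light. The groups did not overlap, and the two-sided exact permutation p was 0.1, below which a design of 3 against 3 cannot go. In the full counts, without thinning, the top 10 genes of each library held on average 6.48% of the reads under LEDs and 5.02% under cool white light. The exact permutation p was again 0.1. Dark libraries had 5.72% to 8.00%, and those of tips that were not cryopreserved 5.57% to 6.49%. Of the 10 genes with the highest mean over the 6 libraries, 9 had a higher mean under LEDs, with log2 fold changes of -0.05 to 0.61 over the 10, and 0 were called by edgeR's quasi-likelihood test, with adjusted p from 0.0768 to 0.907.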

How the data were processed

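Each file holds raw read counts per gene for 1 library, deposited by the authors without normalization. Among the tools in the submitters' processing notes are TopHat2 2.0.8b and featureCounts 1.5.0. The build, annotation and strand setting were not given in the sources used here. Genes that overlap, run antisense or have near-identical copies may therefore share or lose reads. Per the labels' protocols, stranded libraries were made from RNA with an integrity number above 7.4, from 3 biological replicates.

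Counts were analysed in R 4.3.3 with edgeR 4.0.16 (filterByExpr, min.count 10 and min.total.count 15; TMM scaling; glmQLFit and glmQLFTest on all 12 libraries with group as the factor, 8 residual degrees of freedom). Biological variation, as a common coefficient, came to 13.2%. Tests were two-sided, p-values were adjusted over all tested genes after Benjamini and Hochberg, and a gene was called at an adjusted p under 0.05. Standard errors were computed back from the F statistic. Intervals are 95% t intervals and, like the p-values of the fit on all 12 libraries, take the spread as equal in the 4 groups. The functions were tested on simulated counts. The genes named are the 2 largest increases and the 2 largest decreases among called genes with a mean of at least 1 log2 CPM whose libraries did not overlap. The comparison and the lists were chosen with earlier results of these data known. Gene lists and cell type markers had no matched identifier and were not used. Alternatives, including DESeq2 1.42.0 and limma 3.58.1, are given in the closing section. No LED or cool white library repeated another of its group within counting noise (chi-square over degrees of freedom at least 2.94).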

Additional observations from a re-analysis of the deposited data

How the results depend on the processing

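Besides leaving out single libraries, 13 alternatives were run, some of them on only the 6 libraries compared. The number of genes called between LED and cool white light moved by over 1.5 times under 7 of the 13, 2 of them with a replicate block. It was 446 (120 higher, 326 lower) without a filter, 94 (24 higher, 70 lower) when only the 6 libraries compared were fitted, 695 (284 higher, 411 lower) with DESeq2, 1012 (371 higher, 641 lower) with limma voom and a weight for each library, and 40 (3 higher, 37 lower) with a minimum change of 1.2-fold. The weights were 0.414 and 0.450 for LED replicates 1 and 3 and 2.02 for LED replicate 2. With each of the 12 libraries left out in turn the number of calls ranged from 19 to 328 (0 to 107 higher, 19 to 234 lower). The number of genes with an interval inside 2-fold ranged from 14892 to 15832. The share of genes whose libraries did not overlap was 28.7% to 35.9% without an LED or cool white library. There 2 libraries stand against 3, which makes overlap less likely. Without a library of the other groups that share was 22.2% to 22.8%. The cause of the changes in the number of calls was not tested. In every alternative that gave calls, more genes were lower than higher, from 59.1% to 100% of calls. Thinning every library to 6342324 reads, chosen after seeing the data, gave 215 calls, of which 196 were among the 287. The 212 and 75 genes were kept as called in the main fit while the settings changed. Among them, counts of genes lower or higher in darkness than without cryopreservation stayed within 1.5 times in all alternatives. For instance, 106 to 115 of the 212 were lower with a library left out. Genes called under each alternative were not followed in this way.

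The main fit did not pair LED with cool white libraries by replicate number. Deviations from the group means correlated at -0.01, 0.01 and -0.24 between LED and cool white libraries of the same number. No LED library correlated best with the cool white library of its own number. These deviations sum to 0 within each group, so the few correlations cannot show whether libraries of the same number were paired. Between LED and dark libraries of the same number the correlations were 0.20, 0.01 and 0.13. The values of 0.20 and 0.13 were the highest of their LED library with any dark library, and that of 0.01 was not. The number of calls depended on this choice. With replicate number as a block, 135 genes were called in the fit of all libraries (21 higher, 114 lower), against 287 without the block. With the block and only the 6 libraries compared, edgeR called 0 genes (0 higher, 0 lower), with 2367 genes at an unadjusted p under 0.05. A block, or a fit of only 6 libraries, leaves fewer residual degrees of freedom than the 8 of the main fit. The part of this in the loss of calls was not tested.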

Other observations

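Over all genes in the files, including those under the count filter, 39 had a read in all 3 LED libraries and none in the cool white libraries, and 54 had a read in all 3 cool white libraries and none in the LED libraries. None of these genes held more than 18 reads over a group.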
